A study of Sus scrofa with 5 samples.

Results

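The miR-199 and miR-214 group was followed through exosomes of 5 pig body fluids by 5 mature miRNA names: ssc-miR-199a-3p, ssc-miR-199b-3p, ssc-miR-199a-5p, ssc-miR-199b-5p and ssc-miR-214. They were taken by name and not by level, and are 5 of the 411 names listed for every fluid (the pig prefix ssc- is dropped below). Exosomes, the small vesicles that cells release, came from bile, plasma, serum, semen and urine of pigs of the Rongchang breed at postnatal day 180, with 1 small RNA library per fluid. All 5 groups share breed and age, the labels name no treatment, and in them a group differs from the others only by its fluid. The sources used here do not give the number of animals, any pooling, or whether an animal gave more than 1 fluid.

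A miRNA hairpin is cut into a 5p and a 3p arm, and either arm can be loaded into the silencing complex, where its first bases, the seed, select target mRNAs. In mouse and human, miR-199a and miR-214 are made from a shared non-coding transcript, DNM3OS, which runs antisense to an intron of the dynamin gene DNM3 and is active in mesenchymal cells. A second miR-199a hairpin and miR-199b lie within the other dynamin genes. The family is known from fibroblasts and from activated hepatic stellate cells, the collagen-producing cells of the liver, and miR-199a-3p is also abundant in whole human liver and in human platelets. In the pig annotation from RefSeq (build Sscrofa11.1, another build than the Sscrofa10.2 of the files, so that no coordinates are given), MIR199A-1 and MIR214 were both inside DNM3 with no other annotated gene wholly between them. MIR199A-2 was inside DNM2 and MIR199B inside DNM1. Both miR-199a hairpins can give the reads counted as miR-199a, so the neighbour of miR-214 has no count of its own.

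The libraries held 1673239 miRNA counts in bile, 1153755 in plasma, 473168 in serum, 2284926 in semen and 26522 in urine. Levels are given as CPM, counts per 1000000 miRNA counts of the same library, with exact 95% intervals that cover counting error only. With 1 library per fluid there is no replicate error and no test, and each difference is one between 2 libraries. Every listed count was 0 or at least 10, so a listed 0 stands for up to 9 reads. For ratios it was read as 10 counts, which makes the ratio a bound. That floor equals 5.98 CPM in bile, 8.67 in plasma, 21.1 in serum and 4.38 in semen, but 377 CPM in urine. miR-199a-3p and miR-199b-3p have nearly the same sequence, and the rule for reads that match both is unknown here, so their split is uncertain and their sum is given beside it.

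miR-199a-3p, the arm that in human cells represses mTOR and the receptor MET, led the group in all 5 libraries. It had 6954 counts in bile, 552 in plasma, 301 in serum, 11 in semen and 13 in urine. In CPM this was 4156 in bile (95% interval 4059 to 4255), 478 in plasma (439 to 520), 636 in serum (566 to 712), 4.81 in semen (2.40 to 8.61) and 490 in urine (261 to 838). Bile was thus highest and semen lowest, while the intervals of urine overlapped those of both blood fluids and left the order of urine among them unresolved. miR-199a-3p was the 20th most abundant name in bile, the 42nd in plasma, the 77th in serum, the 168th in semen and the 75th in urine. The order of the blood fluids turned round on the authors' RPM (reads per 1000000 of a larger library total), where miR-199a-3p stood at 659 in bile, 76.6 in plasma, 28.4 in serum, 1.02 in semen and 1.20 in urine.

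The other members were listed in fewer fluids. miR-199a-5p, an arm that in human lung fibroblasts represses caveolin-1, had 604 counts in bile (361 CPM), 65 in plasma (56.3 CPM) and 18 in serum (38.0 CPM), and was listed at 0 in semen and urine. miR-199b-5p had 378 counts in bile (226 CPM) and 10 in serum (21.1 CPM, 10.1 to 38.9), the lowest count the files hold, and stood at 0 in plasma, semen and urine. miR-199b-3p had 1584 counts in bile (947 CPM) and a listed 0 in the 4 others. miR-214 had 153 counts in bile (91.4 CPM, 77.5 to 107) and 96 in serum (203 CPM, 164 to 248), and was listed at 0 in plasma, semen and urine. All 5 members were therefore above 0 in bile, 4 in serum, 2 in plasma and 1 each in semen and urine. Of all 411 names, 43.6% were above 0 in bile, 39.2% in plasma, 43.8% in serum, 42.3% in semen and 20.4% in urine. Taken as a sum, the 5 names took 0.578% of the miRNA counts in bile (0.567 to 0.590), 0.0535% in plasma, 0.0898% in serum, 0.000481% in semen and 0.0490% in urine.

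**Figure D1:**
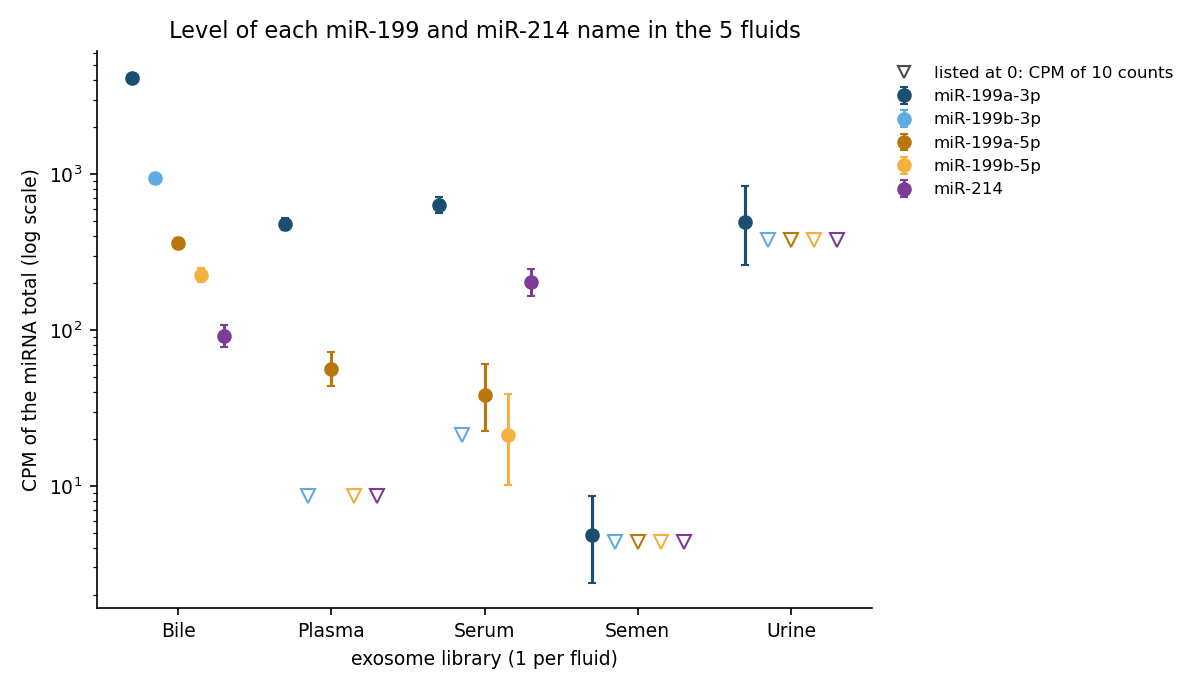
CPM (log scale) of the 5 names in the 5 exosome libraries. Points are the values of 1 library with 95% counting intervals, and hollow triangles mark names listed at 0, drawn at the CPM of 10 counts. miR-199a-3p stands at 4156 CPM in bile and at 4.81 CPM in semen, and the triangles of urine lie at 377 CPM, close to its only listed member.

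Bile was set against each other fluid, with at least 2-fold as the size limit and with every name that had at least 100 counts in either library as background. Bile was chosen for this because earlier results of these data had placed miR-199a-3p highest there. All 5 members entered because all 5 reached 100 counts in bile. Only miR-199a-3p reached 100 counts elsewhere, in plasma and serum, so the members were favoured to be higher in bile by the way they entered, and their counts beside the background are a description and no support. Against semen, 5 of 5 members were at least 2-fold higher in bile, where 37.7% of 138 names were. miR-199a-3p was 863 times its semen level (482 to 1730.2) and had the 3rd highest ratio among the 115 names above 0 in both libraries. The other 4 members, listed at 0 in semen, were at least 216 times higher in bile for miR-199b-3p, 82.5 times for miR-199a-5p, 51.6 times for miR-199b-5p and 20.9 times for miR-214. Depth was not the limit here, since the share that miR-214 held in bile would have given 209 counts in semen.

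Against serum, 4 of 5 members were at least 2-fold higher in bile, where 28.3% of 138 names were, and 1 of 5, miR-214, was at least 2-fold lower, where 53.6% were. miR-199a-3p was 6.53 times its serum level (5.82 to 7.36), miR-199a-5p 9.49 times (5.95 to 16.1), miR-199b-5p 10.7 times (5.75 to 22.5) and miR-199b-3p at least 44.8 times. Among the 124 names above 0 in both libraries, these ratios were the 12th highest for miR-199a-3p, the 8th for miR-199a-5p and the 6th for miR-199b-5p. miR-214 was at 0.451 times its serum level (0.347 to 0.588) and had the 61st highest ratio, near the middle. The median log2 ratio of these 124 names was -1.33, and miR-214 lay 0.18 above it while miR-199a-3p lay 4.04 above it. The 2-fold call of miR-214 was lost under every other scaling run, with ratios of 0.858 with TMM library sizes, 0.693 with DESeq2 size factors and 0.544 on totals without the most abundant miRNA, and on the authors' RPM the direction turned, at 1.60.

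Against plasma, 5 of 5 members were at least 2-fold higher in bile, but so were 60.3% of 141 names. miR-199a-3p was 8.69 times its plasma level (7.96 to 9.49) and miR-199a-5p 6.41 times (4.96 to 8.41), which were the 38th and the 46th highest ratios of 111 names. miR-199b-3p was at least 109 times, miR-199b-5p at least 26.1 times and miR-214 at least 10.5 times its plasma level. The median log2 ratio of the 111 names moved with the scaling, from 1.93 on CPM to -0.45 with TMM library sizes and -0.80 with DESeq2 size factors. With those scalings miR-199a-3p came to 1.67 and 1.31 times, and miR-199a-5p to 1.24 and 0.967 times its plasma level.

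Against urine, 2 of 5 members were at least 2-fold higher in bile, where 11.3% of 115 names were. Only 74 of the 115 were above 0 in both libraries. A listed 0 in urine was read as 377 CPM. Names low in bile could then not reach 2-fold, so depth limits the 11.3%. miR-199a-3p was 8.48 times its urine level (4.96 to 15.9), from 13 urine counts, and had the 3rd highest ratio of 74 names. miR-199b-3p was at least 2.51 times higher, with an interval of 1.36 to 5.25 that reaches below the 2-fold limit. The remaining 3 members could not be compared at this depth, since their bile shares would have given 9.57 counts of miR-199a-5p, 5.99 of miR-199b-5p and 2.43 of miR-214 in the urine library, all under the lowest count listed.

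**Figure D2:**
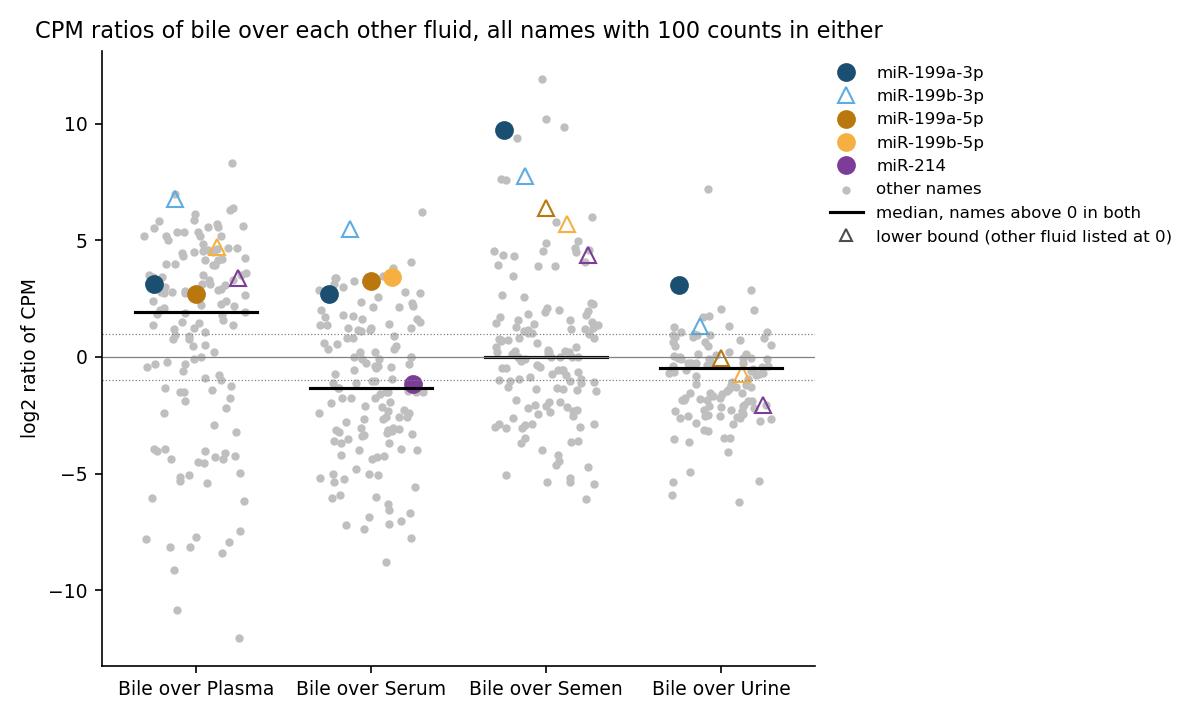
Log2 ratio of CPM of bile over each other fluid for all names with at least 100 counts in either library (grey) and for the 5 members (coloured), with a listed 0 read as 10 counts; hollow triangles are lower bounds, black bars the median of names above 0 in both, and dotted lines 2-fold. The miR-199 names lie at or above 2.71 in the serum column, miR-214 at -1.15 there, and the semen column holds miR-199a-3p at 9.75.

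Plasma and serum are the blood fluids before and after clotting. miR-199a-3p was at 0.752 times its serum level in plasma (0.652 to 0.868), while the median log2 ratio of 109 names was -2.77. It lay 2.36 above that median and had the 24th highest ratio. Of the 119 names with at least 100 counts in either library, 73.1% were at least 2-fold lower in plasma and 20.2% at least 2-fold higher, and miR-199a-3p, the only member to enter, was in neither set. The direction of miR-199a-3p depended on the scaling, with ratios of 7.43 with TMM library sizes, 7.66 with DESeq2 size factors, 1.05 on totals without the most abundant miRNA and 2.70 on the authors' RPM. miR-199a-5p was at 1.48 times its serum level (0.868 to 2.65), an interval that includes no difference, but at 14.6 times with TMM library sizes, 15.1 with DESeq2 size factors, 2.07 on totals without the most abundant miRNA and 5.31 on the authors' RPM. With 0 counts listed in plasma and 96 in serum, just under the limit of 100, miR-214 was at most 0.0427 times its serum level in plasma. It stayed lower in plasma with TMM library sizes, at most 0.422 times, with DESeq2 size factors, at most 0.435 times, and on the authors' RPM, at most 0.153 times.

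The make-up of the group within a library does not depend on the scaling. Set beside 100 counts of miR-199a-3p, miR-214 had 2.20 counts in bile (1.86 to 2.58), at most 1.63 in plasma and 31.9 in serum (25.1 to 40.3). It made up 1.58% of the summed members in bile (1.34 to 1.85), up to 1.44% in plasma with its listed 0 taken as 9 reads, and 22.6% in serum (18.7 to 26.9). Serum thus stood apart from both other fluids, with intervals that did not overlap. At the make-up of bile, the serum library would have held 6.62 counts of miR-214, where 96 were listed. The plasma library would have held 12.1, and its listed 0 stands for up to 9 reads. At 9 reads the plasma value of 1.63 has an interval of 0.742 to 3.12. This overlaps the interval of bile, so bile and plasma were not told apart.

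The balance of the arms was close in the 3 fluids with enough counts. The 3p names took 89.7% of all miR-199 counts in bile (89.1 to 90.3), 89.5% in plasma (86.8 to 91.8) and 91.5% in serum (87.9 to 94.3), and these intervals overlap. Since the 3p names were summed, this share does not depend on how reads were split between them, provided each read was counted once. Whether reads matching both names were counted under both, or left out, is not known here. For miR-199a alone the 3p share was 92.0% in bile, 89.5% in plasma and 94.4% in serum, a range of 4.89 percentage points. Of 23 hairpins with at least 100 counts in each of these fluids, 12 had both arms above 0 in all of them. Among these 12, 3 had a narrower range than miR-199a and 8 a wider one, and the median range was 17.4 percentage points. Of the hairpins left out, miR-17 (40.5) and miR-143 (13.6) were wider than miR-199a. All others left out were narrower, down to 0 for miR-221 and miR-27b, so the comparison depends on this filter. The widest ranges over all fluids were those of miR-361 and miR-425, at 70.3 and 47.4 percentage points. In semen and urine the 3p arm was the only one listed, with 11 and 13 counts, and at the make-up of bile 0.955 and 1.13 counts of miR-199a-5p would have stood beside them, so their arm share was not measurable.

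The split between miR-199a and miR-199b differed by arm. In the 5p arm, miR-199b took 38.5% of the counts in bile (35.4 to 41.6) and 35.7% in serum (18.6 to 55.9, from 28 counts), which were not distinguishable. In plasma it was listed at 0 beside 65 counts of miR-199a-5p, and 9 unlisted reads would make it 12.2%, below the bile value. In the 3p arm, miR-199b took 18.6% in bile (17.7 to 19.4), and with its listed 0 taken as 9 reads at most 1.60% in plasma and 2.90% in serum. At the make-up of bile 126 counts of miR-199b-3p would have stood in plasma and 68.6 in serum, where none was listed. Serum therefore listed the 5p arm of miR-199b without its 3p arm, whereas the 3p share of miR-199b in bile was 80.7% (78.9 to 82.5). Of 7 names listed in bile alone, miR-199b-3p had 1584 counts and the next had 41. The bile table was also written differently from the others: its normalized column held plain zeros for 232 names and 4 decimals for 165 of 411, against 4 decimals for all 411 in each other table. Whether the assignment of reads also differed was not tested. With both 3p names summed, bile held 5103 CPM. With the listed 0 of miR-199b-3p read as 10 counts in the other fluids, this was at least 10.5 times plasma (9.62 to 11.4), 7.76 times serum (6.93 to 8.72), 555 times semen (363 to 897) and 5.88 times urine (3.92 to 9.29). With it read as 0 the ratios were 10.7 for plasma, 8.02 for serum, 1059.9 for semen and 10.4 for urine. These summed values take each read as counted once in every library, which is not known here.

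**Figure D3:**
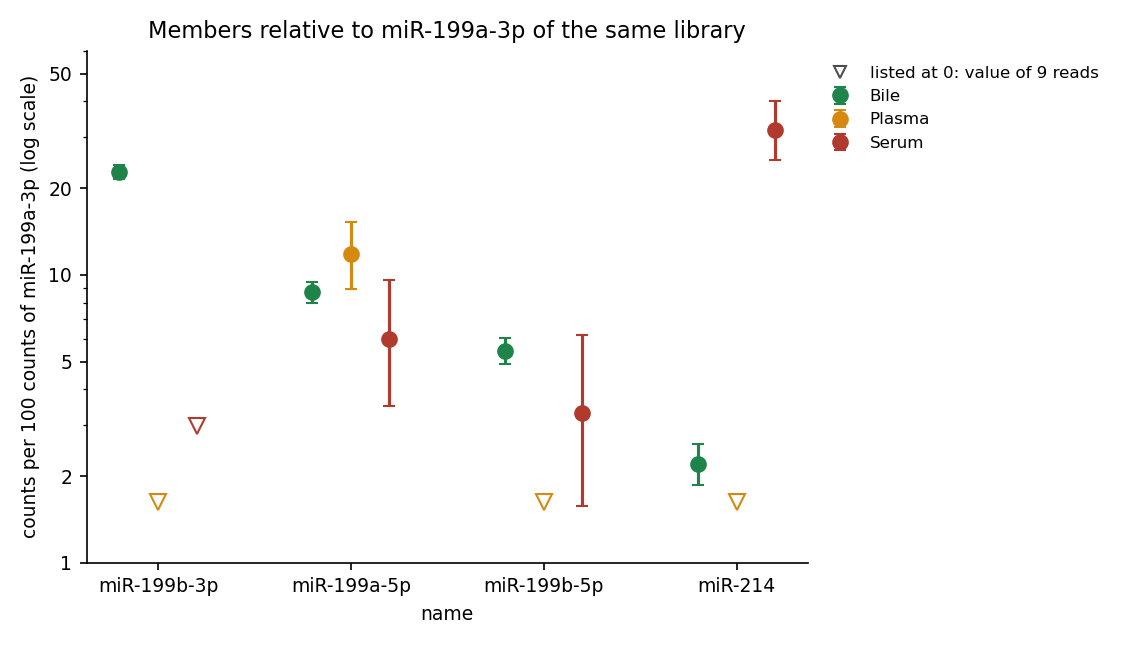
Counts of the other 4 members per 100 counts of miR-199a-3p of the same library (log scale) in bile, plasma and serum, with 95% counting intervals; hollow triangles show names listed at 0 at the value of 9 reads. miR-214 stands at 2.20 in bile against 31.9 in serum, and miR-199b-3p at 22.8 in bile with 2.99 as its limit in serum.

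The names whose distribution over the fluids was most like that of miR-199a-3p were found by profile overlap, the percent of a name's summed CPM that falls in the same fluids, among 161 other names with at least 100 counts in any library. Over these 5 libraries the overlap was 90.5% for miR-143-3p, a smooth muscle miRNA, 90.5% for miR-192, known from liver and gut epithelium, 90.4% for miR-145-3p, from the hairpin transcribed with miR-143, 86.6% for the hepatocyte miRNA miR-122 and 83.1% for miR-365-3p. The 6th name, miR-218, followed at 82.7%, and the median over the 161 names was 26.9%. Bile held 72.1% of the summed CPM of miR-199a-3p and 77.6% to 83.4% of that of the 5 names. miR-199a-5p overlapped by 88.7%, miR-199b-5p by 80.6% and miR-199b-3p by 72.1%, but miR-214 by 42.1%, as 31.1% of its summed CPM was in bile and 68.9% in serum. These values describe 5 points that share library and depth. A listed 0 was taken as 0 here, although in urine it can stand for a level near the floor of 377 CPM. That floor is above the bile CPM of miR-145-3p (130), miR-365-3p (138) and miR-214 (91.4), all listed at 0 in urine. Their overlaps, shares and ranks are therefore not settled by these libraries. Without the urine library, 4 of the 5 most like names stayed.

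**Figure D4:**
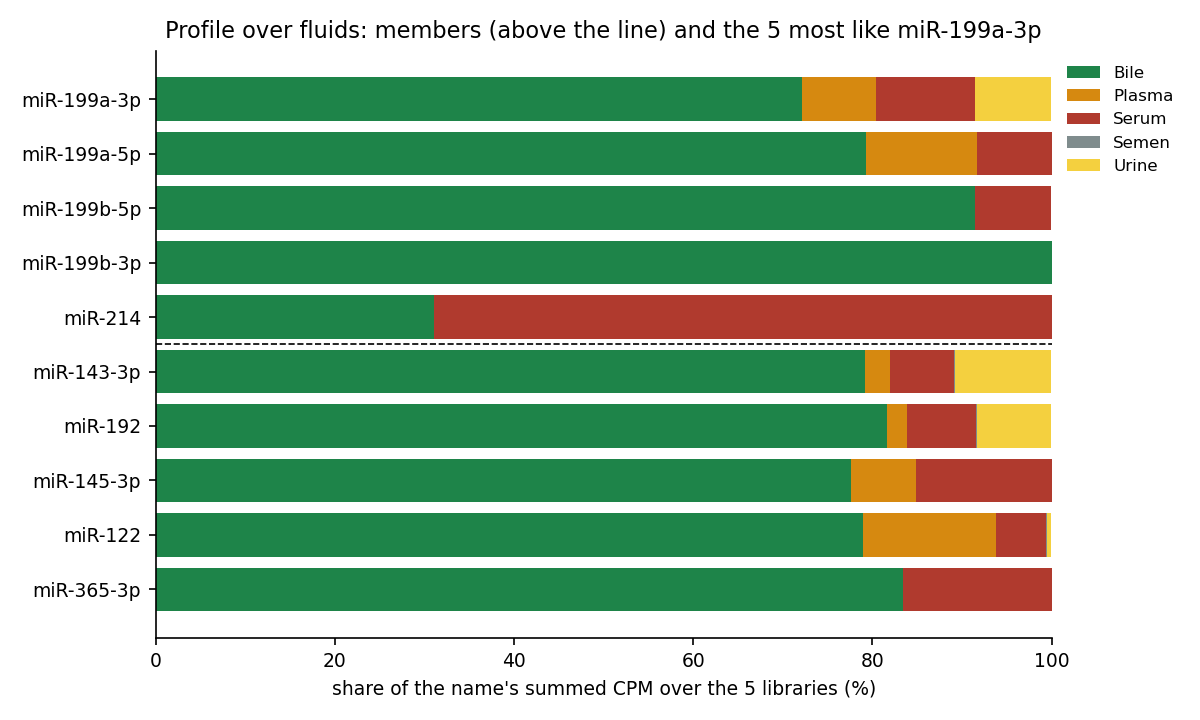
Share of each name's summed CPM (percent) that falls in bile, plasma, serum, semen and urine, for the 5 members above the dashed line and the 5 most like names below it. Bile holds 72.1% for miR-199a-3p and 31.1% for miR-214, whose remaining 68.9% is in serum.

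Other miRNAs of stroma and of the cell types that could feed each fluid were summed beside the group. Of 19 listed names of smooth muscle and stroma, 10 were above 0 in bile, 6 in plasma, 4 in serum, 3 in semen and 4 in urine. Their sum took 2.33% of the miRNA counts in bile, 0.109% in plasma, 0.234% in serum, 0.00464% in semen and 0.641% in urine, the same order of highest and lowest fluid as for miR-199a-3p. It was led by miR-143-3p, at 22678 CPM in bile, and miR-218, at 240 CPM in bile. The whole list came to 23304 CPM in bile, so its sum there was almost all miR-143-3p. Of the 4 names above 0 in urine, only miR-143-3p was higher in bile. The others were higher in urine: miR-450c-5p (2074 CPM against 20.3 in bile), miR-450b-5p (792 against 23.3) and miR-542-3p (452.5 against 40.0). These names had 55, 21 and 12 counts in urine, and too few in either library to be compared below. Against serum 3 of 4 tested names were at least 2-fold higher in bile and 1 lower, where 28.3% of 138 names were higher. The median log2 ratio of the tested names was 2.07, against -1.24 over all 138. Against semen 4 of 4 were higher (5.33 against 0.13), where 37.7% of 138 were. miR-145-5p, miR-145-3p and miR-218 were listed at 0 in semen and entered through bile alone. They were thus bound to be higher in bile, and the median lies between their lower bounds. miR-143-3p, with 78 semen counts, also entered through bile alone, so the count of 4 is no support. Against plasma 3 of 5 were higher and 1 lower (1.79 against 2.20), where 60.3% of 141 were higher. In the serum comparison miR-145-3p and miR-218 also entered through bile alone, as did these and miR-145-5p in the plasma comparison. They were favoured to be higher in bile, while miR-143-5p, the lower name against plasma, entered through plasma alone. Against urine 1 of 4, miR-143-3p, was higher (log2 ratio 2.87). The others, miR-145-5p, miR-145-3p and miR-218, were listed at 0 in urine. Their ratios there were lower bounds at the urine floor of 377 CPM and could not show whether bile was lower.

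The fibrosis-linked list, miR-21 and the collagen-repressing miR-29 names, was lowest in plasma and highest in semen. It took 8.72% in bile, 0.447% in plasma, 2.77% in serum, 9.0% in semen and 4.69% in urine. miR-21 stood at 85605 CPM in bile and 86877 in semen, and miR-29a at 1435 in bile and 2923 in semen, where miR-199a-3p was at 4.81 CPM. Against plasma 4 of 4 of these names were at least 2-fold higher in bile, where 60.3% of 141 names were (median log2 ratio 2.90, against 2.20 over all). Against serum 3 of 4 were, where 28.3% of 138 were (1.61 against -1.24). miR-29b and miR-29c had 108 counts each in bile and were listed at 0 in plasma and serum. They were thus bound to be higher in bile, and both medians equal their lower bounds, so these counts are no support. Against semen 0 of 4 were higher, where 37.7% of 138 were, and 2 lower (-0.52 against 0.13). Against urine 0 of 4 were at least 2-fold higher, with log2 ratios of 0.92 for miR-21 and -0.04 for miR-29a. The names miR-29b and miR-29c, listed at 0 in urine, had only lower bounds there and could not be called lower.

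Markers of other cell types differed in the fluid of their highest share. The hepatocyte list, carried by miR-122, took 5.47% in bile, 1.03% in plasma, 0.389% in serum, 0.00140% in semen and 0.0377% in urine, with 2 of 3 names above 0 in bile and 1 in each other fluid. The erythrocyte list, led by miR-451 and miR-486, took 0.417% in bile, 0.583% in plasma and 10.21% in serum. All 3 of its names were above 0 in each of these fluids. The highest listed CPM of miR-214 was in serum too, as were the highest shares of the lymphocyte, endothelial and epithelial lists below. On the authors' RPM miR-214 was higher in bile (14.5) than in serum (9.06). Its listed 0 in urine can stand for a level near the floor of 377 CPM, above its 203 CPM in serum. The lymphocyte list, led by miR-342 and miR-150, took 0.0305% in bile, 0.0289% in plasma and 1.02% in serum, with 5 of 6 names above 0 in each. The endothelial miR-126 arms took 0.0577% in bile, 0.0205% in plasma and 0.454% in serum. The epithelial list took 0.458% in bile, 0.0133% in plasma, 0.775% in serum, 0.528% in semen and 0.373% in urine. Only 5 of its names were at hand. Of its 12 base names 7 were not among the names analysed, including miR-200a, miR-200b, miR-200c, miR-141 and miR-375. It was led in serum by miR-182 and miR-183, but miR-429 stood above miR-183 in semen (772 against 571 CPM) and in urine. miR-223, the marker set for platelets and myeloid cells, was not among the names analysed here. What part these cell types have in the levels of the miR-199 and miR-214 names was not tested, and in vesicles of a whole fluid more vesicles from a cell type and more of a miRNA per vesicle cannot be told apart.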

How the data were processed

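Small RNA of exosomes from 5 fluids was sequenced in 1 library per fluid. The authors deposited for each library a table of read counts per mature miRNA name, and beside them normalized values that match RPM. The submitters' processing notes name bcl2fastq 2.17 and the build Sscrofa10.2. The aligner, the annotation and the rule for reads matching several names, not given in the sources used here, remain unknown. Counts divided by the deposited RPM gave 1 constant per library within 0.1%, which is larger than the miRNA total. The miRNA counts were 15.9% of it in bile, 16.0% in plasma, 4.47% in serum, 21.2% in semen and 0.246% in urine. From the counts, CPM, shares with Clopper-Pearson intervals and CPM ratios with exact conditional binomial intervals were computed (Python 3.11.15, scipy 1.17.1), and the interval functions were tested on simulated data. No molecular identifiers are named, so intervals cover counting error only. Alternatives used edgeR 4.0.16 TMM factors, DESeq2 1.42.0 size factors, other totals, floors and limits. Members, lists and rules were chosen with earlier results of these data known. All 5 members were named, with the 5 most similar profiles, the 2 leading names of each list in its highest fluid and the 2 hairpins of widest arm range.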

Additional observations from a re-analysis of the deposited data

How the results depend on the processing

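The summed members stayed higher in bile than in each other fluid under every alternative run, but the size moved; the cause was not tested beyond each alternative's own construction. Bile over plasma was 10.8 and became 2.08 with TMM library sizes, 1.63 with DESeq2 size factors, 9.33 on totals without the most abundant miRNA and 9.04 without miR-199b-3p. Bile over serum was 6.44 and became 12.3, 9.89 and 7.76 with the same scalings, 22.8 on the authors' RPM, 8.02 with all libraries scaled down to 26522 counts and 5.38 without miR-199b-3p. Bile over semen was 1201, 574 with listed zeros read as 3 counts and 259 with 10. Bile over urine was 11.8, 25.5 with TMM, 761 on the authors' RPM, 6.13 with listed zeros as 3 and 2.89 with 10. Plasma over serum reversed: 0.595 on CPM, against 5.88 under TMM, 6.07 under DESeq2 and 2.13 by the authors' RPM, with 0.832 on totals without the most abundant miRNA and 0.752 at the reduced depth. Among single members, miR-199a-3p in plasma over serum (0.752) reversed to 7.43, 7.66, 1.05 and 2.70 in the same order of scalings (TMM, DESeq2, reduced totals, RPM), miR-214 in bile over serum (0.451) to 1.60 on RPM, and miR-199a-5p in bile over plasma (6.41) to 0.967 with DESeq2 size factors.

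Names at least 2-fold higher in bile numbered 85 against plasma (47 with TMM, 40 with DESeq2), 39 against serum (62 on RPM, 24 at 4-fold), 52 against semen (33 at 4-fold) and 13 against urine (39 with TMM, 21 with DESeq2, 111 on RPM, 6 at 4-fold). The 3p share of miR-199 counts was 92.0% in bile and 94.4% in serum for miR-199a alone; at the reduced depth it was 100% in bile, plasma and serum, as the 5p arms fell under 10 counts, and the miR-214 share was 0% in bile and in serum. With every listed 0 as 9 reads, miR-199b took 12.2% of 5p counts and miR-214 1.40% of members in plasma, and the 3p share was 52.6% in semen and 55.0% in urine. By Pearson correlation 3 of the 5 most similar names were shared, and 4 under each other alternative. The readings of listed zeros as 10 counts in sums and the sum without miR-199b-3p were added after the data were seen. No paired analysis was possible because each fluid has 1 library.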
